A study of Mus musculus with 2 samples.

Results

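The clustered protocadherins are cadherin-like adhesion proteins whose genes stand in a single array on mouse chromosome 18. The members were taken from the GENCODE M21 annotation as the protein-coding genes whose symbols start with Pcdha, Pcdhb or Pcdhg, which gave 57 of 21938 protein-coding genes. They comprise 14 alpha, 22 beta and 21 gamma genes. By symbol, 5 of them are C-type members (Pcdhac1, Pcdhac2, Pcdhgc3, Pcdhgc4 and Pcdhgc5) and 52 are variable members. In this annotation 2 gene models share the symbol Pcdha11 and were kept apart by their identifiers, ENSMUSG00000007440 and ENSMUSG00000102206. Pcdhgb8 is annotated as a polymorphic pseudogene and was therefore no member.

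Chromatin accessibility was measured by DNase-seq, in which DNase I cuts open chromatin in isolated nuclei and the cut ends are sequenced. The tissue was whole kidney from B6CASTF1/J males aged 25 days, a first-generation cross between the C57BL/6J and CAST/EiJ strains. There was 1 group of 2 libraries, with no treatment and no altered allele, and no comparison between conditions was possible. The labels give each library its own biosample and biological replicate number but the same donor code, so the spread between the libraries may be partly technical. With 1 group no test between groups could be run, and all comparisons below set the members against other genes or against each other within both libraries.

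In neurons, each clustered protocadherin isoform is made from its own promoter in front of a variable first exon. In the alpha and gamma groups this exon is spliced to constant exons shared by the group, whereas beta genes are single-exon genes. Variable promoters are chosen at random in single neurons under the control of CTCF, cohesin and distant enhancers, and the resulting combination of isoforms gives a neuron its surface identity. C-type isoforms are known for more uniform, cell-type dependent use, and most knowledge of the family comes from the nervous system rather than from kidney.

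The deposited signal of a peak is called height here, and a promoter was called open where a peak of the longer deposited list touched the 500 bp on either side of a transcription start site. Replicate 1 had 125393 peaks and 237471 footprints, and replicate 2 had 177001 peaks and 493495 footprints. The lowest heights rose in steps that were 1.72 times larger in replicate 1, so replicate 2 was taken as the deeper library. Of the kidney markers, all 5 of the proximal tubule list were open in both libraries (Lrp2 had heights of 6.93 and 4.53). The loop of Henle, distal tubule, endothelial and stromal lists were also open throughout, whereas collecting duct had 1 of 3, podocyte 3 of 4 and immune cells 1 of 2 open in both. Heights are from bulk tissue, in which fewer cells with an open site and less cutting per cell cannot be told apart.

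A smaller share of clustered protocadherin promoters than of all protein-coding promoters had a peak in both libraries, and the peaks were low. A peak was present in both libraries at 26 of 57 members (45.6%), against 65.3% of all protein-coding genes. Replicate 1 had a peak at 26 members, against 66.2% of all genes. Replicate 2 had a peak at 39 members, which is 68.4%, against 68% of all genes. The share lay below that of all genes in replicate 1 and at that of all genes in replicate 2. Every member open in replicate 1 was also open in replicate 2, and 18 members had no peak in either library.

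The low height held in both libraries. The median height of open members was 0.491 in replicate 1 and 0.586 in replicate 2. The median over all open protein-coding promoters was 7.36 and 6.63, which is 15.0 and 11.3 times the median of the members. Only Pcdhgc3 exceeded the median promoter in both libraries. On the stricter deposited peak list 10 members were open in both libraries, against 62% of all genes, and among the upper 50% of peaks by height 6 members were, against 58.9%.

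**Figure D1:**
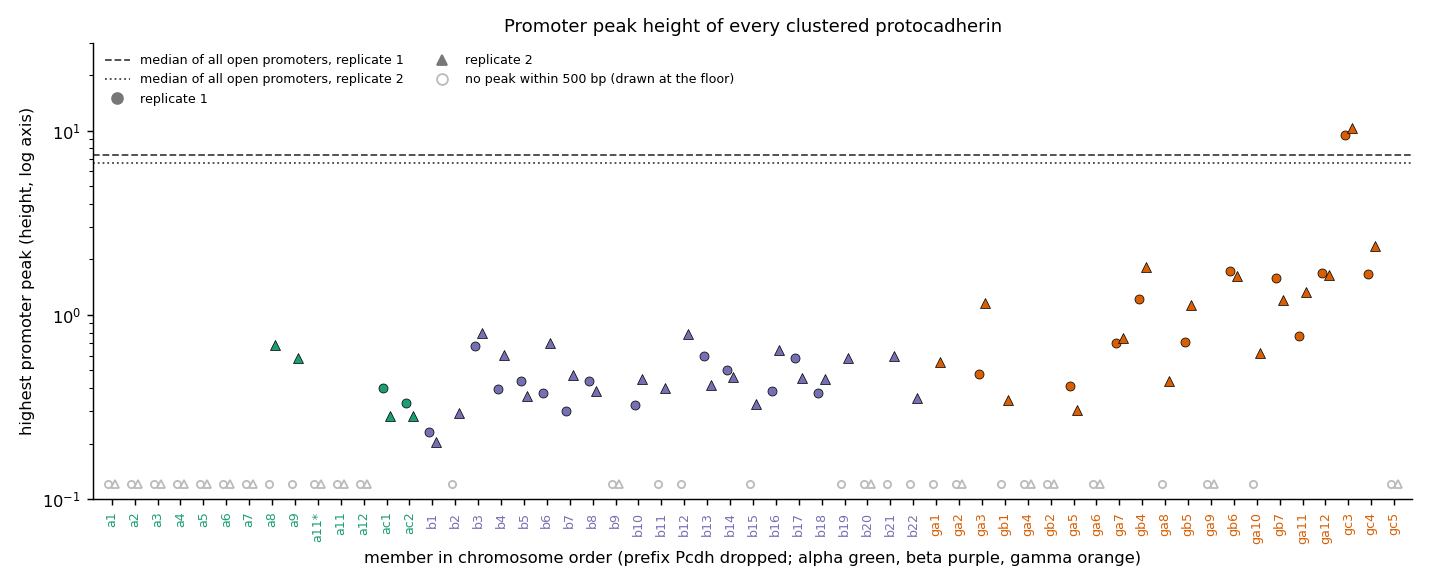
Height of the highest promoter peak (log axis) of each of the 57 members in chromosome order, with circles for replicate 1, triangles for replicate 2 and open symbols at the floor where no peak was present. The asterisk marks the Pcdha11 model ENSMUSG00000007440, and lines give the median of all open protein-coding promoters. Alpha members are mostly without a peak, beta members lie between 0.204 and 0.795, and gamma members reach up to the C-type member Pcdhgc3 at 9.48 and 10.3.

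The C-type members ranged from the highest promoter of the family to no peak at all. Pcdhgc3 (ENSMUSG00000102918, chromosome 18, gene start 37806364, plus strand, mm10) had heights of 9.48 and 10.3 (mean 9.88 ± 0.570, SD, n = 2). It stood at the percentiles 60.4 and 66.7 of all open promoters and had 5 and 8 footprints, short protected stretches within open chromatin. Its height was 5.49 and 4.36 times that of the next highest member. In the brain, Pcdhgc3 is widely expressed and is the C-type gamma isoform known to bind Axin1, a scaffold of Wnt signalling.

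The neighbouring C-type promoters differed from it. Pcdhgc4 (ENSMUSG00000023036, start 37815079), the isoform known for its role in the survival of cortical interneurons, had heights of 1.67 and 2.36 (mean 2.01 ± 0.490, SD, n = 2). Its highest peak was centred at -388.5 and -408.5 bp from the start, where negative positions are upstream. This was the farthest upstream among the highest peaks of the members. Lower peaks lay nearer to its 2 annotated starts, at -40.5 bp in replicate 1 (0.838) and at -12.5 and -27 bp in replicate 2 (0.775 and 0.656). Another lay 559.5 and 589.5 bp downstream of a start (1.36 and 1.64). No peak, no footprint and no base with a listed cut rate was found at Pcdhgc5 in either library. The alpha C-type promoters were open but low. Pcdhac1 had heights of 0.402 and 0.283, and Pcdhac2, the isoform known from serotonergic neurons, had 0.333 and 0.283. In all, 4 of 5 C-type members were open in both libraries, and 2 of 5 on the stricter list. Pcdhgc3, Pcdhgc4 and the alpha C-type pair thus kept their order in both libraries, and the members of that pair overlapped in height.

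Variable gamma promoters were the next in height. Of 18 variable gamma members 9 (50%) were open in both libraries, against 65.3% of all genes, and 13 (72.2%) in replicate 2, against 68%. The 9 include Pcdhga5, whose peaks did not overlap between the libraries. They were centred 288.5 bp downstream of its start in replicate 1 and 15.5 bp downstream in replicate 2. The open ones belonged to both sequence types: 5 of 12 A-type and 4 of 6 B-type members were open in both. Pcdhga12 had heights of 1.69 and 1.65, and its peak was centred 320.5 bp downstream of the start in both libraries. Pcdhgb6 had heights of 1.73 and 1.62. Pcdhgb4 had 1.21 and 1.81. The heights of these promoters overlapped between the libraries, so their order was not resolved. Pcdhgb7 had 1.58 and 1.21, and Pcdhga11 had 0.769 and 1.33, the wider spread of this pair.

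Along the gamma array, open promoters had a higher median height among the later members. Of the first 9 variable gamma members, from Pcdhga1 to Pcdhga7, 3 were open in both libraries. Heights were 0.410 to 0.701 over the 3 open in replicate 1 and 0.303 to 1.16 over the 5 open in replicate 2. Of the last 9, from Pcdhgb4 to Pcdhga12, 6 were open in both. Heights were 0.709 to 1.73 over the 6 open in replicate 1 and 0.437 to 1.81 over the 8 open in replicate 2. The median height of open promoters was 0.479 and 0.551 in the first set and 1.40 and 1.27 in the last. The height ranges nearly touched in replicate 1, at 0.701 and 0.709, where a height step was 0.00855, and overlapped in replicate 2. In the beta array 8 of the first 11 and 5 of the last 11 members were open in both, and 10 and 10 in replicate 2. The median height of open beta promoters was 0.385 and 0.425 in the first set and 0.504 and 0.457 in the last, a smaller difference in the same direction as in gamma. Gamma members without a peak in either library were Pcdhga2, Pcdhga4, Pcdhgb2, Pcdhga6, Pcdhga9 and Pcdhgc5.

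Pcdhgb8, the pseudogene that stands among the last gamma genes, was open to a similar height as its neighbours, with 1.45 in replicate 1 and 1.47 in replicate 2, and had 3 and 7 footprints. Its value sat within the range of the last 9 variable gamma members. It was left out of all counts of members.

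Beta promoters that were open were low. Of 22 beta members 13 (59.1%) were open in both libraries, against 65.3% of all genes, and 20 (90.9%) in replicate 2, against 68%, and the absent ones in both libraries were Pcdhb9 and Pcdhb20. Heights ran from 0.231 to 0.675 in replicate 1 (median 0.393) and from 0.204 to 0.795 in replicate 2 (median 0.450). Pcdhb3 was the highest, with 0.675 and 0.795. Pcdhb6 had 0.376 and 0.700. Pcdhb17 had 0.581 and 0.452. The last pair crossed between the libraries, so its order was not resolved. Pcdhb16 had 0.385 and 0.641, and Pcdhb13 had 0.598 and 0.417. Pcdhb1, which stands apart at the start of the array, had the lowest heights, 0.231 and 0.204, from peaks centred 375.5 and 265.5 bp downstream of its start. On the stricter list 3 beta members were open in both libraries and 0 among the upper 50% of peaks.

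Alpha promoters were the least open. Of 14 alpha members 2 were open in both libraries, both of them C-type. Of the 12 variable alpha members 0 were open in replicate 1 and 2 in replicate 2. Pcdha9 had a height of 0.586 in replicate 2, centred at -99.5 bp from its start. Pcdha8 had 0.686 in replicate 2, but that peak was centred 529.5 bp downstream of the start and only its edge touched the promoter window. The other 10 variable alpha members, from Pcdha1 to Pcdha7 and from the first Pcdha11 model to Pcdha12, had no peak, no footprint and no base with a listed cut rate in either library.

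The median height of open gamma promoters was 1.21 and 1.16, against 0.393 and 0.450 for beta and 0.367 and 0.435 for alpha. The gamma median thus lay above the others in both libraries, and the alpha values rest on 2 and 4 open promoters. Variable members as a whole were open in 22 of 52 cases (42.3%) in both libraries, against 65.3% of all genes. In replicate 2, 35 of 52 (67.3%) were open, against 68% of all genes. The C-type count of 4 of 5 was the same in both libraries. With 5 genes, the difference in shares between C-type and variable members rests on few genes. Among variable members, Pcdhgb6, Pcdhga12, Pcdhgb4 and Pcdhgb7 lay above both alpha C-type members in both libraries, so the C-type class did not separate from the variable class by height.

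The 13 members open in replicate 2 alone were 2 alpha, 7 beta and 4 gamma genes, and none was open in replicate 1 alone. Of all protein-coding genes, 3.62% were open in exactly 1 library. Beside the alpha members named above, the beta genes were Pcdhb12 (height 0.785), Pcdhb21 (0.596), Pcdhb19 (0.586), Pcdhb11 (0.402), Pcdhb22 (0.353), Pcdhb15 (0.328) and Pcdhb2 (0.293). The gamma genes were Pcdhga10 (0.621), Pcdhga1 (0.551), Pcdhga8 (0.437) and Pcdhgb1 (0.343). Several of these were as high as members open in both libraries. In replicate 1 only Pcdhb11 had bases with a listed false discovery rate below 0.05, 15 bases with a lowest rate of 0.0482, and the other 12 had 0. Replicate 2 was the deeper library, and the part of depth in these calls was not tested.

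Where both libraries had a peak, heights were close. Of 26 members 14 were higher in replicate 2 and 12 in replicate 1, and 25 lay within 2-fold. Pcdhga5, whose peaks did not overlap between the libraries, was counted among the 26. On the log2 scale replicate 2 exceeded replicate 1 by a median of 0.11 (SD 0.50, n = 26), and over all protein-coding promoters open in both by -0.05 (SD 0.46). Pcdhga3 was the exception, with 0.479 in replicate 1 and 1.16 in replicate 2, a log2 ratio of 1.27.

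Footprints followed the peaks. At least 1 footprint was present in both libraries at 23 of 57 members, against 62.8% of all protein-coding genes. Replicate 1 had 55 footprints at 24 members, against 63.4% of all genes with a footprint. Replicate 2 had 118 footprints at 38 members, against 66.6%. No member without a peak had a footprint in that library. An open beta promoter had a median of 2 footprints in replicate 1 and 2.5 in replicate 2, and an open gamma promoter had 3 in each. Open promoters without a footprint were Pcdhac1 and Pcdhb14 in replicate 1 and Pcdhga5 in replicate 2.

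Member peaks were compact and lay just upstream of the start. Their midpoints had a median of -42 bp in replicate 1 and -44 bp in replicate 2, against -33.5 and -37.5 bp for all genes. A midpoint within the 200 bp upstream of the start was found for 76.9% and 79.5% of open members, against 64.3% and 64.4% of all open genes. Median peak width was 154.5 and 160 bp, against 200 bp in both libraries for all genes. The open promoters of all genes were also much higher, and widths at like heights were not compared. At the position of highest coverage, -80 bp, 77.3% of beta members lay in a peak in replicate 2. For gamma the highest coverage in replicate 2 was 57.1%, at -70 bp, and for all genes 48.2%, at -40 bp. In replicate 1 the highest coverage was 45.5% in beta and 38.1% in gamma, below the 47.2% of all genes, so the order differed between the libraries.

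**Figure D2:**
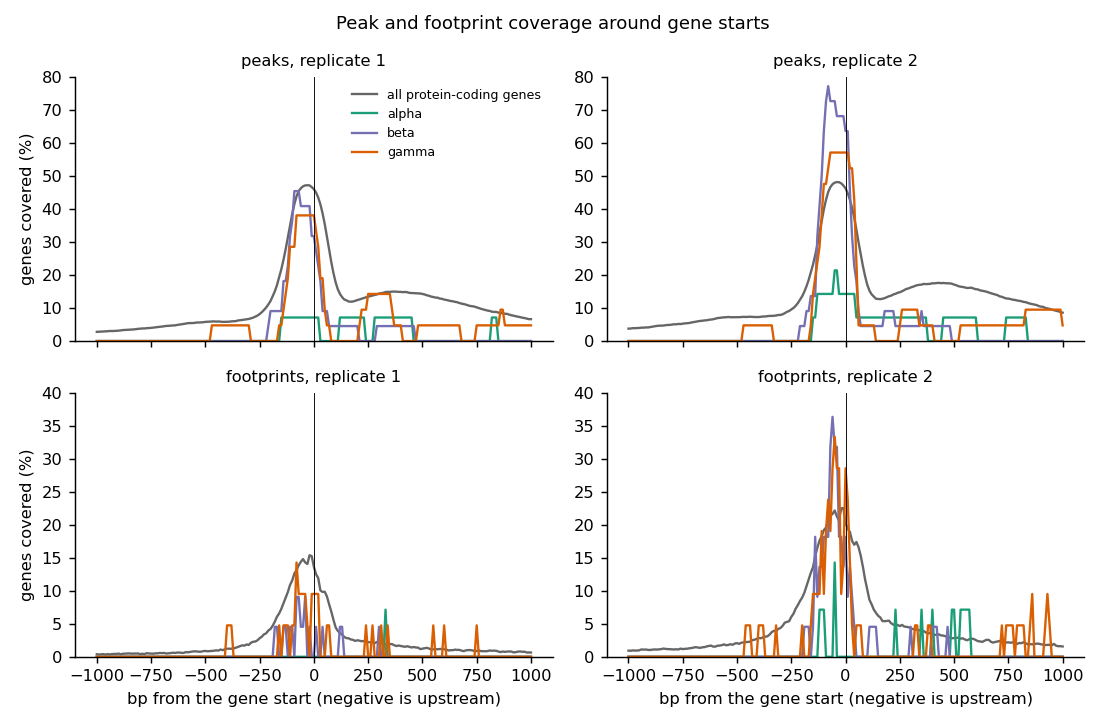
Percent of genes covered by a peak (upper panels) or a footprint (lower panels) at each distance from the gene start in bp, in replicate 1 (left) and replicate 2 (right), for alpha, beta, gamma and all protein-coding genes. Beta coverage by peaks reaches 45.5% in replicate 1 and 77.3% in replicate 2 just upstream of the start, while alpha stays at or below 21.4%, and the broad shoulder of all genes downstream of the start is low in the members.

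Clustered protocadherin promoters carry a short conserved element whose invariant core is known as the CGCT box. The letters CGCT were searched on the gene's own strand between -120 and -20 bp from the start, a stretch set after the sequences had been seen. The box was found there in 46 of 57 members (80.7%), against 26.6% of all protein-coding promoters. On the opposite strand it was found in 24.6% of members and 26.9% of all promoters. That share differed by group, with 3 of 14 alpha, 2 of 22 beta and 9 of 21 gamma members (42.9%), and 4 of 5 C-type members. On the gene's own strand, 11 of 14 alpha, 17 of 22 beta and 18 of 21 gamma members had it, and 2 of 5 C-type members, Pcdhac1 and Pcdhgc3.

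Within this stretch, which bounds the positions, the first letter of the box had a median position of -86 bp in alpha (-120 to -61), -52 bp in beta (-82 to -26) and -59 bp in gamma (-101 to -23). The letters beside the box differed by group, as 3 words picked from the members' sequences show for the stretch from -200 to -1 bp. TGTCGCT was found in 10 of 12 variable alpha promoters, 0 of 22 beta and 3 of 18 variable gamma, and in 0.624% of all promoters. TGGCGCT was found in 17 of 22 beta promoters, 0 of 12 variable alpha and 0 of 18 variable gamma, and in 1.41% of all promoters. CGCTGTT was found in 14 of 18 variable gamma promoters, 1 of 12 variable alpha and 1 of 22 beta, and in 0.693% of all promoters. The words were searched on the gene's own strand, share the letters CGCT and so overlap the box, and were chosen for their frequency in these groups.

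**Figure D3:**
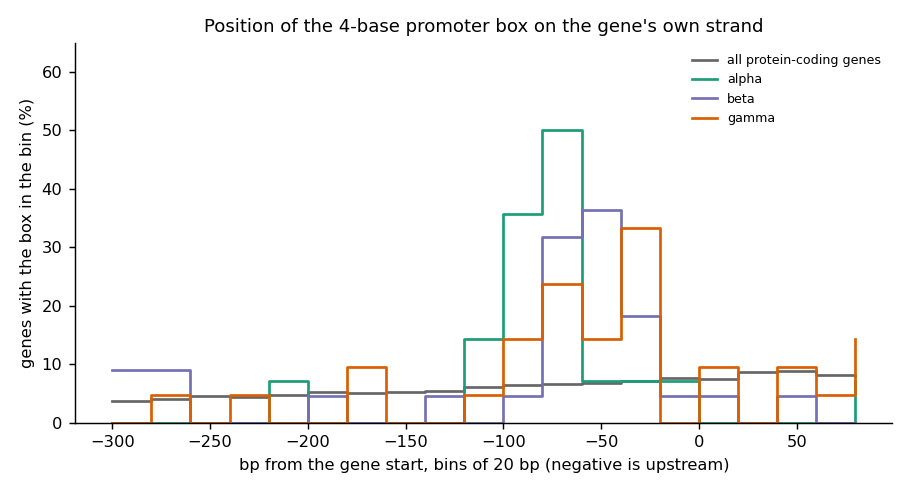
Percent of genes with the letters CGCT on their own strand in each bin of 20 bp around the gene start, for alpha, beta, gamma and all protein-coding genes. Alpha has its maximum of 50% in the bin that starts at -80 bp, beta reaches 36.4% in the bin at -60 bp and gamma 33.3% in the bin at -40 bp, while all genes stay between 6.11% and 7.08% in the bins from -120 to -40 bp.

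Among open members that had the box, it lay in a footprint at most in replicate 2 and at a smaller share in replicate 1. Of the 31 members with the box and a peak in replicate 2, the peak covered the box in 28, and a footprint covered it in the same 28, which is 90.3%. All 15 open beta members with the box were among them, and 11 of 13 gamma and 2 of 3 alpha members. Among the 5209 protein-coding promoters open in replicate 2 with the letters in this stretch, the peak covered the letters in 4005. A footprint covered them in 2616, which is 50.2% of the 5209. As a measure of how much footprint these promoters hold, footprints took 31.2% of the bases of the stretch at these members and 35.2% at all such genes. In replicate 1, with fewer and shorter footprints, a footprint covered the box in 8 of 19 such members (42.1%), against 36.3% of all such genes. By this share the members stood above all such genes in replicate 2 and close to them in replicate 1. The share also counts promoters whose peak missed the letters, which were more frequent among all such genes than among members. Footprints at members had a mean length of 10.7 bp in replicate 1 and 15.9 bp in replicate 2.

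Presence of the box did not separate open from closed members. Of the 46 members with the box 67.4% were open in replicate 2, and of the 11 without it 72.7%. In replicate 1 the shares were 41.3% and 63.6%. Pcdhga12 and Pcdhgc4, without the letters in this stretch, were among the higher members, and 11 of 14 alpha members had them although most alpha promoters were closed.

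By the ratio of observed to expected CpG, alpha promoters fell among classes that are mostly open elsewhere in the genome. This ratio in the promoter window had a median of 0.682 in alpha, 0.378 in beta and 0.594 in gamma, and promoters of all protein-coding genes were ranked into 10 equal classes by it. Alpha members fell in the classes 6 to 8, where 92.7% of all genes would be open in both libraries by the shares of their classes, and 14.3% of alpha members were. Beta members fell in the classes 2 to 5, with 59.1% open against 55.8% for these classes. Gamma members fell in the classes 3 to 9, with 52.4% open against 83.7%. Median GC content was 45.4% in alpha, 41.3% in beta and 47.1% in gamma, against 54.7% for all genes, so at an equal ratio the members held fewer CpGs. For peaks in both libraries, the beta share thus lay near that of genes with a like ratio. The alpha and gamma shares lay below it, with no test of the difference. In replicate 2 taken by itself, 28.6% of alpha, 90.9% of beta and 71.4% of gamma members were open. Shares by class were not computed for that library.

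**Figure D4:**
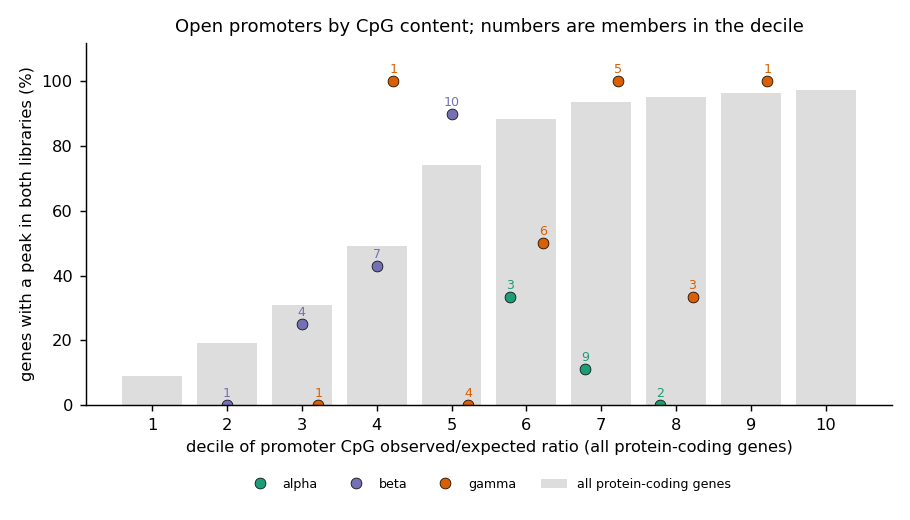
Percent of genes with a promoter peak in both libraries in each decile of promoter CpG observed over expected ratio, with bars for all protein-coding genes and points for alpha, beta and gamma members (numbers give the members in the decile). In decile 7 the bar stands at 93.6% and 1 of 9 alpha members was open, while all 5 gamma members were, and in decile 5 the bar stands at 74.2% with 9 of 10 beta and 0 of 4 gamma members open.

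The first exons of a group are close copies of each other, and reads from repeated sequence are often dropped in mapping. The share of 32-base words of the promoter window that occur once in the genome had a median of 77.9% in variable alpha members (71.3% to 90.6%). It was 100% in beta, 98.5% in gamma and 100% in other genes of chromosome 18. Of the members with a peak in both libraries, the lowest value was 71.0%, lower than that of any alpha member. The median was 99.9% in these members and 93.9% in the others. The part of repeated sequence in the absence of alpha peaks was not tested.

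CTCF is known to bind at the promoters and first exons of alpha genes when these are in use. Its core motif, searched on both strands over the promoter window, was found in 12 of 14 alpha, 2 of 22 beta and 8 of 21 gamma members, and in 25.0% of all protein-coding promoters. In variable alpha members most matches lay 191 to 256 bp downstream of the start, and in gamma members 294 to 450 bp downstream. None of these window matches in variable alpha members was in a peak or footprint. The replicate 2 peak at Pcdha8, centred 529.5 bp downstream of the start, held a core motif that was not among the window matches. A peak covered the match at Pcdhac1 in both libraries and at Pcdhga5 in replicate 1, and the match at Pcdhac1 was in a footprint in replicate 2. The motif of REST, a repressor of neuronal genes (the RE1 element, searched on both strands), was found in 0 of 57 members and in 0.137% of all promoters.

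Over the cluster as a whole, peaks were as dense as in the genome but unevenly placed. The cluster spans 911.69 kb (chromosome 18, 36930184 to 37841873, mm10) and held 52 peaks in replicate 1 and 64 in replicate 2. This is 5.70 and 7.02 peaks per 100 kb, against 4.74 and 6.69 over all chromosomes. Windows at member starts held 30 and 43 of them. The density was 0.547 ± 0.00521 (SD, n = 2) of that in the 200 kb on both sides together, and the ratio for footprints was 0.389 ± 0.0799. The flanks were unlike each other, with 5.5 and 6 peaks per 100 kb upstream and 15.5 and 19.5 downstream, and with flanks of 100 kb the peak ratio was 0.848.

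**Figure D5:**
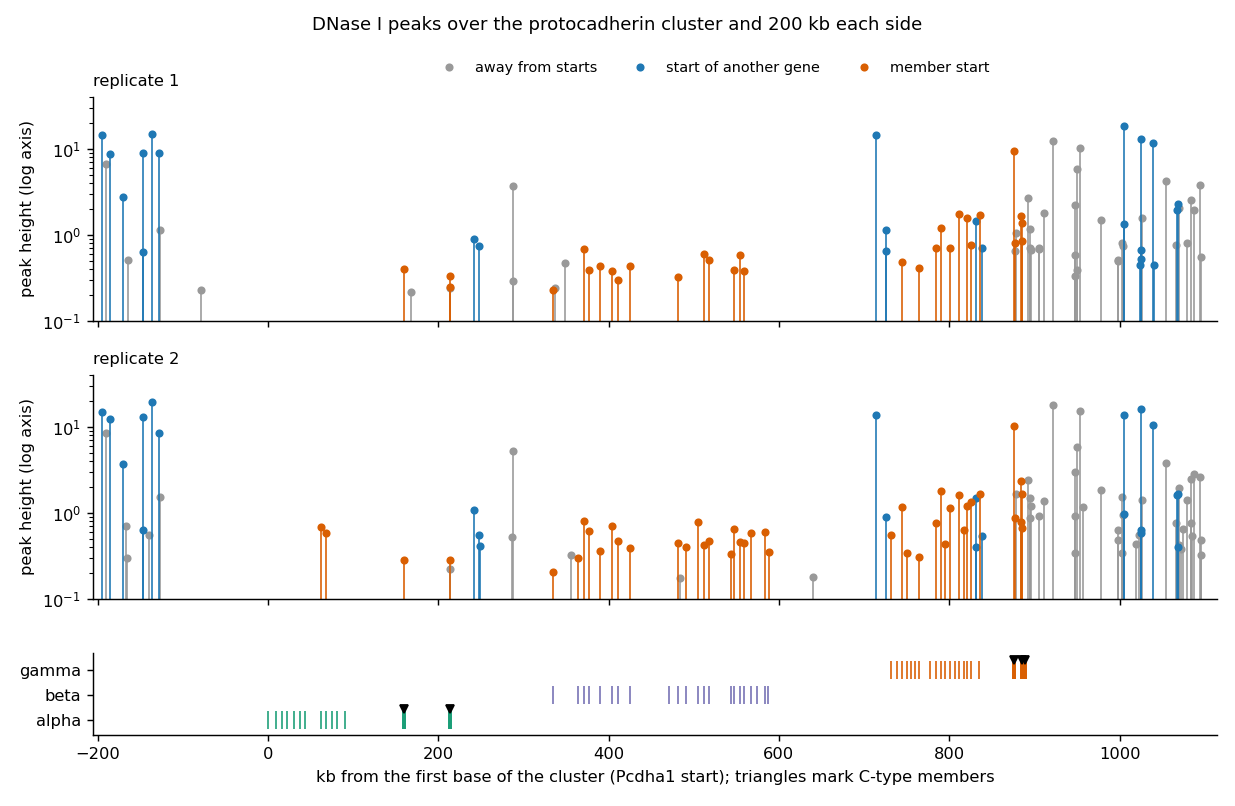
Peak height (log axis) of each peak in replicate 1 and replicate 2 over the cluster and 200 kb each side, by distance in kb from the start of Pcdha1, with peaks at member starts in orange, at starts of other genes in blue and away from starts in grey. The lower panel marks the member starts. The stretch of the variable alpha members is empty in replicate 1 and holds 2 peaks in replicate 2, and the highest peak at a member start is that of Pcdhgc3.

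The groups differed more than the cluster did from the genome. The stretch of variable alpha members held 0 peaks in replicate 1 and 1.26 per 100 kb in replicate 2. The beta part held 5.78 and 8.48. The stretch of variable gamma members held 7.64 and 10.4, and that from Pcdhgc3 to the end of the constant exons 38.9 and 36.1. The order of these parts was the same in both libraries. The stretch of alpha C-type members and constant exons held 7.13 and 6.11, above the beta part in replicate 1 and below it in replicate 2. In replicate 1 no peak lay between 36851021 and 37089860, a stretch of 238.84 kb that holds the starts of all 12 variable alpha members. Stretches at least this long made up 0.921% of those between neighbouring peaks of the library and held 19.4% of the bases outside peaks. In replicate 2 the longest stretch was 189.68 kb and held 8 member starts, Pcdha1 to Pcdha8.

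Peaks of the cluster recurred between the libraries about as often as other peaks. Of 52 peaks of replicate 1, 47 overlapped a peak of replicate 2 (90.4%, exact Clopper-Pearson 95% interval 79.0% to 96.8%), against 87.6% over all chromosomes. Of 64 peaks of replicate 2, 44 overlapped a peak of replicate 1 (68.8%, 55.9% to 79.8%), against 62.2%. The intervals cover counting error over peaks only and include the values of the genome.

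Away from the member starts, the cluster held a few higher peaks. The highest peak between the alpha and beta genes lay at 37218281 to 37218460 in replicate 1, at -46567.5 bp from the start of Pcdhb1, with heights of 3.72 and 5.21 and 3 footprints in each library. It was intergenic and exceeded every alpha and beta promoter in both libraries. The alpha enhancer known as HS5-1 lies downstream of the alpha constant exons, but its position was not matched to this peak. In the gamma part, a peak at 37822561 to 37822760 between the variable and constant exons had heights of 2.65 and 2.37. A peak in the last gamma exon (37841361 to 37841540), which holds a CTCF core motif, had 1.77 and 1.35. Inside the alpha constant region, peaks stood at the starts of the noncoding genes Gm38097 (0.889 and 1.06) and Gm10544 (0.735 and 0.551).

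Beyond the gamma genes, high peaks lay in introns of Diaph1, which encodes an actin-nucleating formin and ends next to the cluster. Downstream regulatory elements of the gamma and beta genes are known from this side of the cluster, and their positions were likewise not matched. The highest had heights of 12.4 and 17.7 at 37852241 to 37852420, centred 32764.5 bp after the start of Pcdhgc5, and held a CTCF core motif. A second, at 37883561 to 37883720, had 10.2 and 15.1. Another, at 37880281 to 37880460, had 5.76 and 5.82. The first of these exceeded every member promoter in both libraries, and the second did so too.

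Protein-coding genes beside the array were mostly open, whereas within it 1 of 5 other protein-coding genes was open in both libraries. Taf7, a subunit of the general transcription factor TFIID that stands between beta and gamma, had heights of 14.4 and 13.6. The mitochondrial carrier gene Slc25a2 beside it had no peak. Upstream, 7 of 8 protein-coding genes were open in both libraries, among them Zmat2 (14.9 and 19.2), Tmco6 (14.4 and 14.9) and the divergent histidyl-tRNA synthetase genes Hars and Hars2, which share a peak of 9.02 and 12.9. Dnd1, a germ cell gene, had none. Downstream, 5 of 5 were open, among them Diaph1 (18.6 and 13.6), Hdac3 and Rell2, which share a peak (13.0 and 15.9), and Fchsd1 (11.7 and 10.5). The readthrough gene models that span the array, Gm42416, Gm37013 and Gm37388, had no peak at their starts.

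Genes related to the clustered protocadherins were mostly open in both libraries. Of 12 protocadherins outside the cluster 9 were, with median heights over the open ones of 2.59 and 2.33. The highest were Pcdh17 (10.7 and 9.60), Pcdh10 (5.20 and 7.08), Pcdh19 (3.49 and 2.99) and Pcdh18 (3.39 and 3.37). Pcdh15 and Pcdh20 had no peak, and Pcdh11x had a peak of 0.224 in replicate 2 alone. Of all genes, 65.3% were open in both. All 9 other cadherins listed were open, with Cdh1, the epithelial cadherin, at 11.3 and 7.38 and the kidney cadherin Cdh16 at 5.33 and 8.14.

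The genes that act on the cluster or with its products were open too. All 12 genes listed for CTCF, cohesin and cohesin regulators were open in both libraries, with medians of 11.9 and 8.64. Ctcf itself had 10.5 and 7.95. All 10 of the repressors and chromatin regulators that could be found by symbol were open, among them Smchd1 (11.3 and 8.14), which silences the cluster in other tissues, Setdb1 (13.2 and 13.6), Trim28 (9.61 and 7.25) and Rest (8.01 and 4.56). All 12 genes listed as partners were open, among them the kinase gene Ptk2 (8.88 and 5.81) and Axin1 (9.69 and 10.5). The receptor gene Ret was the lowest of them, with 0.718 and 0.606. Each of these lists was open above the 65.3% of all genes.

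Markers of neurons were partly open. Of 10 neuronal genes 5 were open in both libraries and 8 in replicate 2. Map2 had 6.21 and 4.38, Elavl4 1.12 and 0.884, Tubb3 0.974 and 0.800, Slc17a7 0.923 and 1.09, and Rbfox3 0.393 and 0.482. Stmn2 and Gad1 had no peak in either library, and Snap25, Syt1 and Nefl had peaks of 0.174 to 0.293 in replicate 2 alone. The cell types that carry the member peaks were not tested.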

How the data were processed

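DNase-seq files of 2 libraries of mouse kidney, on mm10 per the labels, were used as deposited. Per the file descriptions, peaks and footprints were called for each library alone; their tools and the aligner were not given in the sources used here. As the main measure served the deposited signal of the longer peak list (peak height), with the stricter list as an alternative. The deposited footprints carry a false discovery rate (q-value) of 0.01 throughout, and the deposited cut-rate q-values are listed only below 0.05. Absolute depth is unknown. The sources used here do not say whether alignment allowed for CAST/EiJ variants.

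Promoters were 500 bp on either side of any start in GENCODE M21 basic, and overlap was at least 1 bp. Densities used peak midpoints. Sequence came from GRCm38.p6. Scripts ran in Python 3.11.15 with numpy 2.4.6 and scipy 1.17.1, and promoter calling was tested on simulated data (200 of 200 promoters recovered, 0 false, among 1000). Members and lists were chosen with earlier results of these data known. The text names all C-type members, the 5 highest in each group by mean height, members open in 1 library, the highest related genes and neighbours and those without a peak; the split of the arrays, CGCT and its words, Pcdhga3, Pcdhga7, Pcdhb1, Pcdha8 and Pcdha9 were added after values were seen. The alternatives tried were other half-widths, the 5′ end of the gene model, the stricter list, the upper 50% of peaks, other flanks, and each library alone. Sequence of the members is not printed, and Zfp274 was not found by symbol. The result of 1 further marker list is not reported here.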

Additional observations from a re-analysis of the deposited data

How the results depend on the processing

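Half-widths of 1000 and 2000 bp and the 5′ end alone left each count of open members the same (26 in all, 2 alpha, 13 beta, 11 gamma, 4 C-type, 22 variable), and 23 for footprints. The stricter list gave 10 in all (0 alpha, 3 beta, 7 gamma, 2 C-type, 8 variable) and the upper 50% of peaks 6 (0, 0, 6, 2 and 4). With 1 library left out, counts ran from 26 to 39 for all members, 2 to 4 for alpha, 13 to 20 for beta, 11 to 15 for gamma, 22 to 35 for variable and 24 to 38 for footprints, with the higher value in each case without replicate 1. The peak density ratio was 0.848 and 0.441 with flanks of 100 and 500 kb, 0.417 on the stricter list and 0.217 for peaks over 1 kb from any start, and 0.543 to 0.551 with 1 library left out. The footprint ratio was 0.657 with flanks of 100 kb and 0.333 to 0.446 with 1 library left out. Shared cluster peaks fell from 90.4% to 71.2% at 50% reciprocal overlap. The cause of these shifts was not tested. Over 61 values of comparisons 39 stayed within the limits set and 22 did not. The limits were wide, since the rise from 26 to 39 open members without replicate 1 counted as staying. All 84 values of single members stayed, but a setting in which a member lost its peak gave no value and was not counted. Many of the 84 read the same peak again, so this count could hardly show a shift. No paired analysis was possible because both libraries form 1 group. In replicate 1 open promoters stood 39 to 47 height steps above 0 in alpha, 27 to 79 in beta and 48 to 1109 in gamma.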

Other observations

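Antisense and noncoding genes inside the array were mostly closed. Of 23 genes within the cluster that are not protein-coding, 5 were open in both libraries, among them the long noncoding 3222401L13Rik just before Pcdhga1 with heights of 1.14 and 0.899. The antisense models Gm38225 and Gm37753, which start near Pcdha4 and Pcdha6, had no peak, and these alpha promoters had none. Gm26672 shares the peak of Pcdhga11 (0.769 and 1.33) at another start and has its own at its 5′ end (0.701 and 0.537).

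Neighbouring members start close to each other. The median distance between adjacent starts was 7323 bp in alpha, 7781 bp in beta and 5345.5 bp in gamma, and the smallest of all was 4131 bp, so no promoter window of 500 bp either side overlapped that of a neighbour at its gene start.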
